A study of Mus musculus with 5 samples.

Results

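The clustered protocadherins are 58 genes of the mouse that lie in a single stretch of chromosome 18 (chr18:36930184-37841873, GRCm38) and are all read from the plus strand. They were chosen by name, as the GENCODE vM21 genes of chromosome 18 whose symbol begins with Pcdha, Pcdhb or Pcdhg, and they are 58 of the 21756 genes examined. The Pcdha cluster holds 14 of them, the Pcdhb cluster 22 and the Pcdhg cluster 22. Their CpG methylation was measured by whole-genome bisulfite sequencing (WGBS), in which an unmethylated cytosine is read as T and a methylated cytosine as C, in blasts of Cebpa-mutant acute myeloid leukemia (AML) from mouse bone marrow. The labels give the strain as C57BL/6, and the study's methods give C57BL/6J donors and C57BL/6J.SJL recipients. All leukemias were Cebpa-/p30, that is, 1 Cebpa allele was deleted and the other makes p30 alone, a shortened form of the myeloid transcription factor CEBPA. Tet2, the gene of a dioxygenase that oxidises 5-methylcytosine, was intact in 2 libraries (Tet2+/+, numbered 23 and 24) and deleted in 3 (Tet2-/-, numbered 5, 7 and 8). Floxed alleles were removed by Mx1-Cre, which poly(I:C) switches on in blood and in other tissues, after transplantation of marrow into irradiated recipients. The blasts were sorted as live donor-derived CD45.2+ cells without CD3, B220 and Ter119, so that T, B and erythroid cells were gated out, and the age of the mice at collection is not given in the sources used here. The study collected marrow from moribund recipients and reports shorter survival with Tet2-/- than with Tet2+/+ cells. Genotype therefore cannot be told apart from the time to collection.

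Protocadherins are cell adhesion proteins of the cadherin family, best known for giving each neuron its own surface identity. In the Pcdha and Pcdhg clusters each variable first exon has its own promoter and is spliced to constant exons that all members of the cluster share, whereas Pcdhb genes are single exons that encode the whole protein. A neuron uses only some of the promoters, chosen at random on each chromosome, and the promoters that are not chosen carry DNA methylation. CTCF and cohesin loop a distant enhancer to a chosen promoter by binding a short conserved element just before its start. The last members of the Pcdha and Pcdhg clusters (the C-type genes Pcdhac1, Pcdhac2, Pcdhgc3, Pcdhgc4 and Pcdhgc5) are used more evenly among neurons than the variable members.

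The libraries held 63111735 to 110752967 CpG calls, or 2.96 to 5.19 calls per CpG dyad, and 62.3% to 74.8% of all calls were methylated, with the lowest share in Tet2+/+ library 24. The coding part of the last exon of Tet2 was covered by 83 and 111 calls in the Tet2+/+ libraries and by 0 in each Tet2-/- library, which allows up to 3 calls, whereas the other coding exons had 345 to 575 calls in the Tet2-/- libraries. A level is given as the methylated share of all calls over both strands. A promoter is the 1000 bp on each side of the annotated start, and promoters and first exons were used where every library had at least 20 calls. All 58 promoters passed this filter, with at least 34 calls in every library, and so did 56 first exons. The first exons annotated for Pcdhb6 (142 bp) and Pcdhb8 (185 bp) hold 4 CpG dyads each and had as few as 7 calls. A level in bulk DNA is a share over cells and alleles, and fewer methylated cells cannot be told apart from fewer methylated sites per cell.

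Most protocadherin genes were heavily methylated in every library. Of the 58 promoters, 52 had a mean level over 50%, 5 lay between 20% and 50%, and only Pcdhgc3 lay under 20%. The median of the promoters was 62.9%, against 16.1% over the 19398 other promoters tested. Protocadherin promoters held fewer CpGs, with a median of 48 dyads in 2 kb against 70 in the other promoters. Among the 5682 other promoters in the same range of CpG number (26 to 68.6 dyads, the 10th to 90th percentile of the members) the median level was 33.3% and 36.7% lay over 50%. The contrast was wider in first exons, which are long in these genes and rich in CpGs. Of 56 first exons 55 lay over 50%, with a median of 75.5%, against 1.22% over the 12453 other first exons. Among the 1061 other first exons with 69 to 135.5 dyads, the median was 3.17% and 9.14% lay over 50%. These were matched on the number of CpGs and not on length. The protocadherins outside the clusters were closer, with a median of 44.2% over the 10 first exons tested and 4 over 50%.

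**Figure D1:**
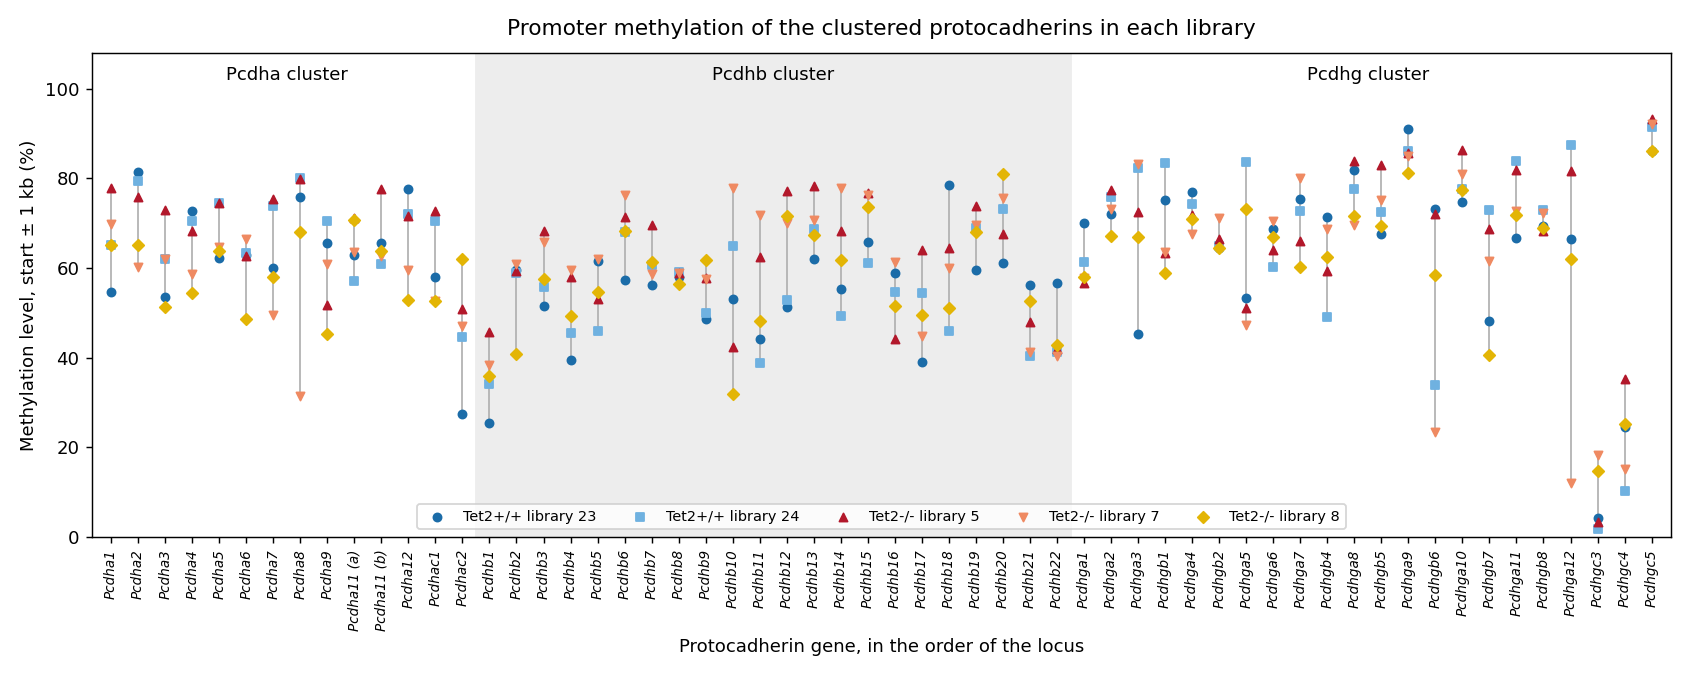
Promoter methylation level (percent of calls within 1 kb of the start) of the 58 protocadherin genes, in the order of the locus, with 1 symbol per library and a grey line from the lowest to the highest library. The 2 genes named Pcdha11 are marked a and b, most genes lie between 40% and 80%, Pcdhgc3 lies at 1.59% to 18.3%, and Pcdhga12 drops to 11.9% in Tet2-/- library 7.

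The promoters of all 3 clusters lay between 52.6% and 68.7% in every library. Summed over members, the Pcdha promoters had levels of 60.1% (library 23) and 65.1% (library 24) in Tet2+/+. In Tet2-/- they had 68.7% (library 5), 55.1% (library 7) and 57.9% (library 8). The Pcdhb promoters had 52.6% and 54.0% against 61.4%, 61.2% and 55.3%, in the same order of libraries. The Pcdhg promoters had 59.2% and 58.1% against 63.2%, 57.1% and 57.2%. The 95% Wilson intervals of these sums were at most a few points wide, and they cover counting error only. Within libraries, Pcdha exceeded Pcdhb by 4.51 points on average, Pcdha exceeded Pcdhg by 2.44 points and Pcdhb differed from Pcdhg by -2.07 points, each in 4 of 5 libraries. An exact sign-flip permutation test over 5 libraries (two-sided) gave p = 0.1875, 0.3125 and 0.375. With 5 libraries 0.063 is the smallest p possible, so that the test could not settle these differences. The adjusted exact sign-flip p was 0.375 for all 6 comparisons of promoters and first exons.

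The C-type genes weighed on these sums. Without them the Pcdhb promoters differed from the Pcdhg promoters by -11.9 points and the Pcdhb first exons from the Pcdhg first exons by -6.71 points, each lower in 5 of 5 libraries (exact sign-flip permutation p = 0.063 for both, unadjusted and the smallest possible). The Pcdha promoters then differed from the Pcdhg promoters by -3.72 points, with the opposite sign to that with all genes (exact sign-flip permutation p = 0.063). That comparison of variable members was added after the values were seen. The median over genes was 65.0% in Pcdha, 57.1% in Pcdhb and 69.5% in Pcdhg, and the median number of dyads per promoter was 54.5, 28.5 and 54.0, so that the Pcdhb promoters held the fewest CpGs. Across the 58 promoters the mean level and the number of dyads had a Spearman correlation of 0.21 and a Pearson correlation of -0.18, and within Pcdha, Pcdhb and Pcdhg the Spearman values were 0.14, 0.02 and -0.11 and the Pearson values -0.63, -0.22 and -0.63. These are descriptions over genes that share a locus and libraries, and their signs do not settle a direction.

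Methylation was lower just before the start of the variable Pcdhb and Pcdhg genes than on either side of it. In the 200 bp before the start the variable Pcdhb genes had 27.3% ± 2.82 (SD, n = 2, Tet2+/+) against 31.8% ± 3.43 (SD, n = 3, Tet2-/-). The variable Pcdhg genes had 42.4% ± 2.27 (SD, n = 2) and 45.9% ± 4.20 (SD, n = 3) there. From 1 to 2 kb into the first exon, the levels per 200 bp were 72.0% to 83.1% in Pcdhb, 80.8% to 85.0% in Pcdhg and 78.5% to 87.4% in Pcdha. The variable Pcdha genes had a mean of 54.9% over the 5 libraries in the 200 bp before the start, against 68.8% in the 200 bp before that and 66.6% in the 200 bp after the start. Steps farther upstream were as low or lower (52.6% from 800 to 600 bp and 30.9% from 2200 to 2000 bp before the start, on as few as 15 and 20 calls), so that the profile of Pcdha did not single out the start. The first exon as a whole was more methylated than the promoter window in 54 of 56 genes, by a median of 11.2 points, although the window and the exon share the CpGs of the first 1 kb.

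**Figure D2:**
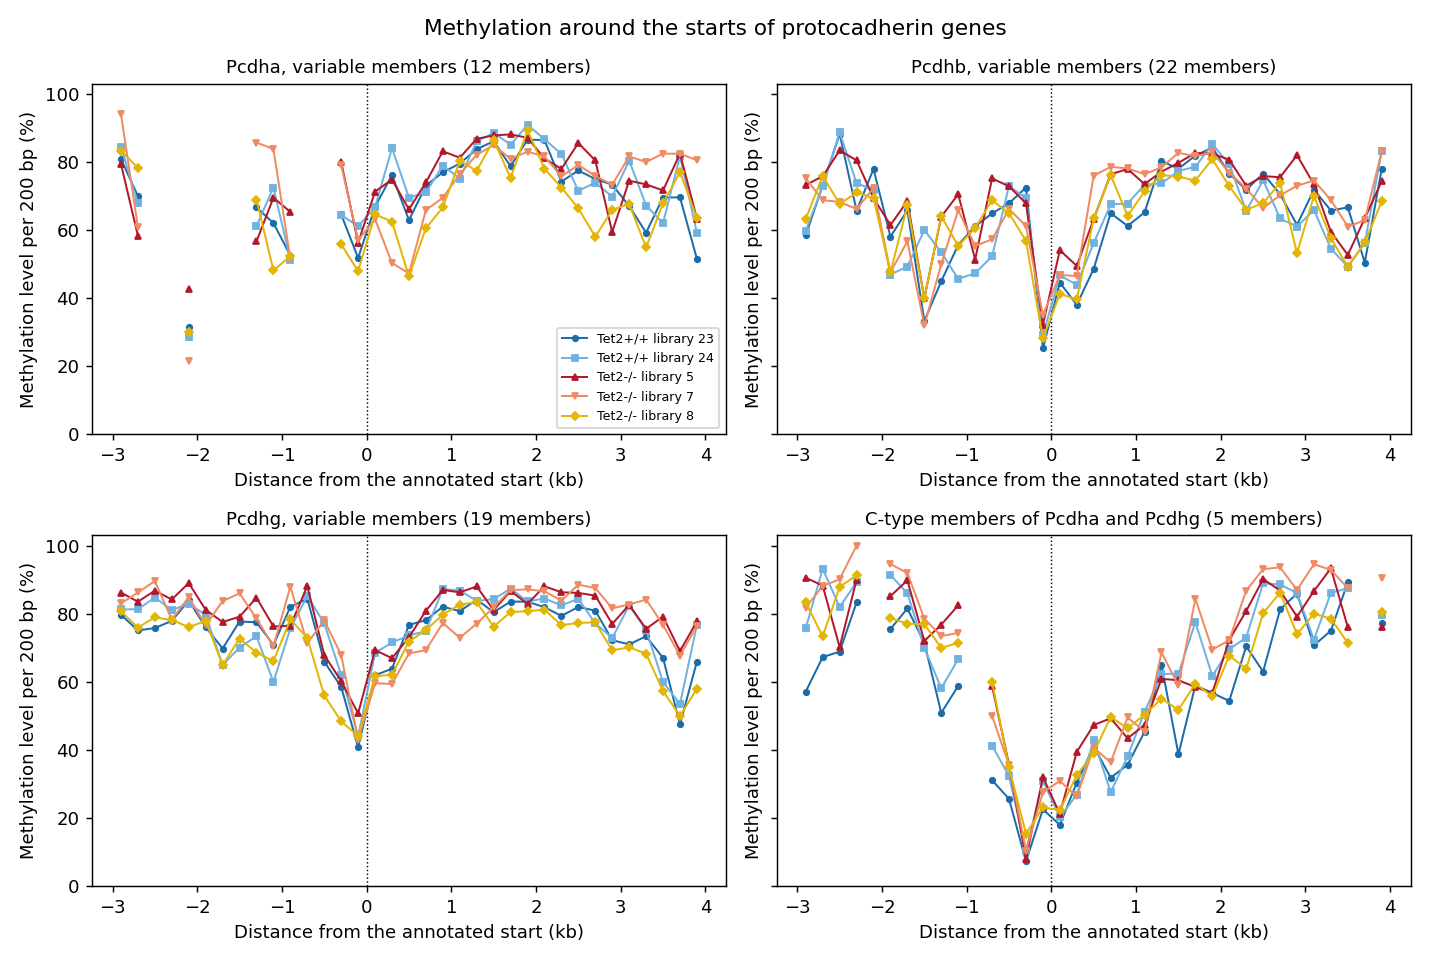
Methylation level in steps of 200 bp from 3 kb before to 4 kb after the annotated start, with 1 line per library, for the variable Pcdha, Pcdhb and Pcdhg genes and for the 5 C-type genes (steps under 20 calls in any library are left out). Pcdhb and Pcdhg reach their lowest level in the last 200 bp before the start, at 29.99% and 44.5% averaged over the 5 libraries, and the C-type genes reach 10.3% between 400 and 200 bp before it.

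Many of the starts are preceded by a 6-base box that was noticed in the sequences of the locus. The box was searched as GNCGCT, which holds the CGCT core of the conserved element, from 200 bp before to 50 bp after the start. On the coding strand it was found in 48 of 58 protocadherin windows, namely 11 of 14 in Pcdha, 18 of 22 in Pcdhb and 19 of 22 in Pcdhg. Among all 21756 windows of the same length 22.2% held it on that strand, and counting either strand it was in 51 of 58 protocadherin windows and in 37.1% of all windows. The letters were chosen after the box was noticed in these protocadherin windows, so its high share in them is no independent support. Its CpG lay at a median of 66 bp before the start in Pcdha, 52 bp in Pcdhb and 61 bp in Pcdhg. The 10 windows without it on the coding strand were those of Pcdhac2, Pcdhb1, Pcdhgc4 and Pcdhgc5, which are known to lack the element, and those of Pcdha5, the Pcdha11 gene ENSMUSG00000007440, Pcdhb13, Pcdhb17, Pcdhb22 and Pcdhga12. A match to 6 letters is a description and not a site of binding, and its absence says only that these letters are not in the window.

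The CpG of the box was less methylated than its neighbours in Pcdhb and Pcdhg. In Pcdhb it was methylated in 8.96%, 14.9%, 13.4%, 18.1% and 1.92% of calls (libraries 23, 24, 5, 7 and 8), and the other CpGs of the same windows in 25.4%, 23.1%, 36.9%, 37.2% and 30.1%. In Pcdhg the box had 20%, 20.3%, 32.5%, 16.2% and 27.5%, and the other CpGs 40.1%, 41.4%, 51.1%, 41.8% and 44.1%. The box minus its neighbours came to -19.1 ± 7.504 points in Pcdhb and to -20.4 ± 3.36 points in Pcdhg (SD, n = 5), below 0 in 5 of 5 libraries each (exact sign-flip permutation p = 0.063, the smallest possible). In Pcdha the box was lower in 3 of 5 libraries, with a mean difference of -12.1 ± 15.1 points (SD, n = 5, exact sign-flip permutation p = 0.25). These sums rest on 27 to 117 calls of the box CpG per cluster and library. Between the genotypes the box of all 48 genes had 20.9% ± 0.540 (SD, n = 2, Tet2+/+) against 24.3% ± 5.16 (SD, n = 3, Tet2-/-; exact permutation p = 0.6).

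**Figure D3:**
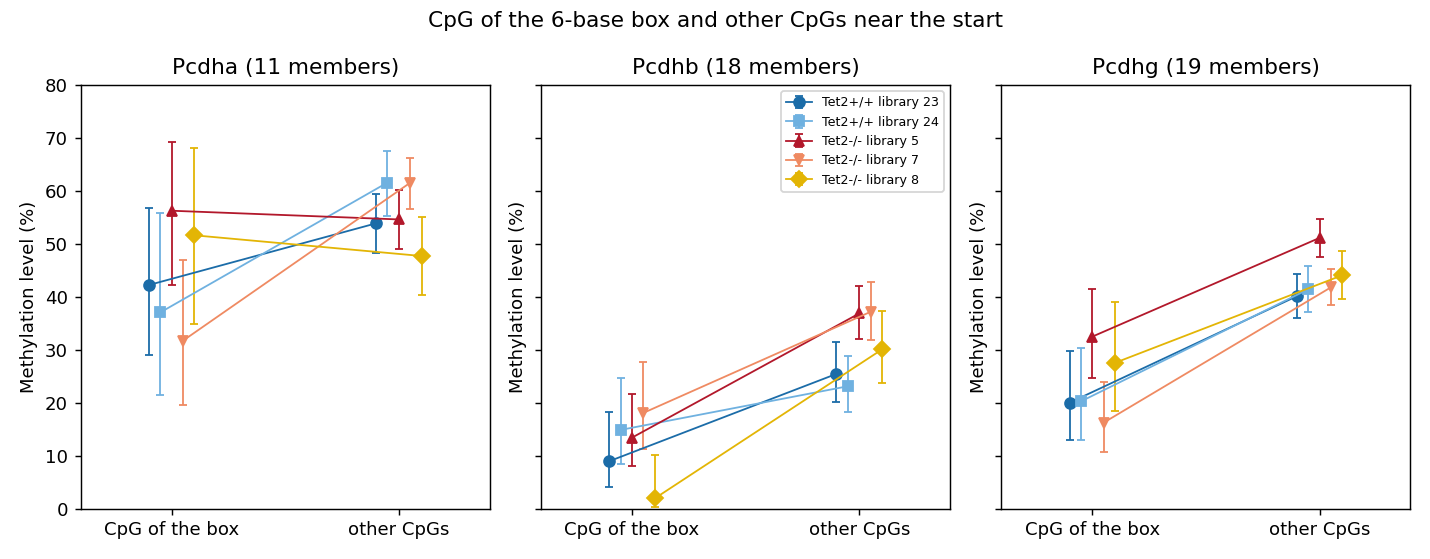
Methylation level of the CpG inside the 6-base box and of the other CpGs from 200 bp before to 50 bp after the start, summed over the genes of each cluster that hold the box, with 1 line per library and 95% Wilson intervals of the calls. All 5 lines rise from the box to the other CpGs in Pcdhb and Pcdhg, and 3 of 5 rise in Pcdha.

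The C-type genes covered the whole range of the locus, from the lowest to the highest mean level of the 58 promoters. Pcdhgc3 had the lowest mean promoter level of all 58, with 4.24% (library 23) and 1.59% (library 24) for Tet2+/+ against 3.32% (library 5), 18.3% (library 7) and 14.7% (library 8) for Tet2-/-. Pcdhgc4 followed with 24.5% and 10.3% against 35.2%, 15.1% and 25.3%, and lay below Pcdhgc3 in library 7. Pcdhb1, the first gene of its cluster, had 25.3% and 34.1% against 45.7%, 38.4% and 35.8%. Pcdhac2 had 27.5% and 44.5% against 50.8%, 47.1% and 62.0%, with a mean between those of the variable genes Pcdhb22 and Pcdhb21. Pcdhac1, at 58.0% and 70.5% against 72.7%, 52.7% and 52.7%, lay among the variable Pcdha genes. Pcdhgc5 had the highest mean promoter level of the 58 genes, with 86.0% to 93.2%, so the neighbours Pcdhgc4 and Pcdhgc5 lay at opposite ends of the range.

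Among the variable genes, Pcdhga9 had the highest mean, at 81.3% to 91.1%, a range that overlapped that of Pcdhgc5. In Pcdha the highest were Pcdha2 (60.2% to 81.4%) and Pcdha5 (62.2% to 74.6%), and the lowest beside Pcdhac2 was Pcdha9 (45.3% to 70.4%). In Pcdhb the highest were Pcdhb20 (61.2% to 81.0%) and Pcdhb15 (61.1% to 76.7%), and the lowest beside Pcdhb1 was Pcdhb22 (40.4% to 56.6%). The ranges of Pcdha2, Pcdha5 and Pcdha9 overlapped, as did those of Pcdhb20 and Pcdhb15, so their order is not settled by these libraries. In first exons the order was kept in part. By mean level Pcdhgc3 was again the lowest at 14.4% to 37.4%, followed by Pcdhac2 at 40.7% to 56.8%, Pcdhb1 at 44.4% to 57.7% and Pcdhgc4 at 53.2% to 66.2%, and Pcdhgc5 was again the highest at 80.9% to 93.9%. The ranges of Pcdhac2, Pcdhb1 and Pcdhgc4 overlapped. Pcdhgb8 (84.5% to 89.1%), among others, lay above Pcdhgc5 in libraries 23 and 8, so that this order is not settled either. Pcdhb22 (67.4% to 75.8%) and Pcdha9 (65.5% to 81.5%) had first exons closer to the median of their clusters.

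To ask whether the loss of TET2 changed the locus, each promoter and first exon was compared between the genotypes in a fit across all genes. No protocadherin promoter and no first exon passed edgeR's quasi-likelihood test at an adjusted p of 0.05. Over all promoters tested 1.07% passed (209 of 19456), of which 206 were higher in Tet2-/-, and over all first exons 1.44% passed. At an unadjusted p under 0.05 there were 6 of 58 protocadherin promoters, against 18.1% of all promoters, and 3 of 56 first exons, against 8.74% of all first exons. The 3 first exons were that of Pcdhgc3, which was higher in Tet2-/-, and those of Pcdha12 and Pcdhga12, which were lower. Limma called 0 protocadherin promoters and 0 first exons, against 0.396% and 0.408% of all, with 6 promoters and 0 first exons at an unadjusted p under 0.05, against 17.7% and 11.1%. EdgeR's likelihood ratio test also called 0 of both, against 4.72% and 1.89% of all. A count of 0 does not show that the genes did not differ.

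The direction of the differences was mixed in the protocadherins, whereas over all genes most differences were positive. The difference of group means was positive in 30 of 58 promoters, against 76.7% of all promoters. All Tet2-/- libraries lay above both Tet2+/+ libraries in 11 protocadherin promoters, against 32.8% of all promoters, and these were the Pcdha11 gene ENSMUSG00000007440, Pcdhac2 and 9 Pcdhb genes (Pcdhb1, Pcdhb3, Pcdhb4, Pcdhb6, Pcdhb9, Pcdhb11, Pcdhb12, Pcdhb14 and Pcdhb15). All Tet2-/- libraries lay below in 8 protocadherin promoters, against 4.05% of all promoters, and these were Pcdha2, Pcdha4, Pcdha9, Pcdha12, Pcdhga1, Pcdhgb1, Pcdhga4 and Pcdhga9. In first exons the difference was positive in 26 of 56, against 62.5% of all first exons, the Tet2-/- libraries all lay above in 6, against 17.7%, and they all lay below in 2, against 6.28%. These counts are over genes of 1 locus that share their libraries.

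The protocadherins were next set beside other promoters of like level, since a promoter near 0% or 100% has little room to move. Of the protocadherin promoters 53 had a mean level of 40% to 80%, a band set after the values were seen. For Tet2+/+ their median level was 62.1% (library 23) and 64.9% (library 24), against 68.3% (library 5), 63.6% (library 7) and 61.8% (library 8) for Tet2-/-, so that the genotypes overlapped. The 4394 other promoters of this band had medians of 60.0% and 54.8% against 67.7%, 73.0% and 64.6%, with every Tet2-/- library above both Tet2+/+ libraries. The median of the differences was -0.52 points in the protocadherins and 9.44 points in the other promoters. Among the 1577 others that also had a like number of CpGs it was 11.2 points. In first exons of the same band it was -1.02 points in 47 protocadherins and 8.39 points in 1229 others. Among the 125 other first exons that also had a like number of CpGs it was only 3.42 points. Within the band the protocadherin first exons had a median level of 75.2%, against 58.4% in the others, so that they were less alike in level. With each library left out in turn, the promoter median of the protocadherins minus that of the others ranged from -12.6 points (without Tet2+/+ library 23) to -5.74 points (without Tet2+/+ library 24), against -9.96 points with all 5. Library 24, the lowest of all in the other promoters, was not low in the protocadherins.

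**Figure D4:**
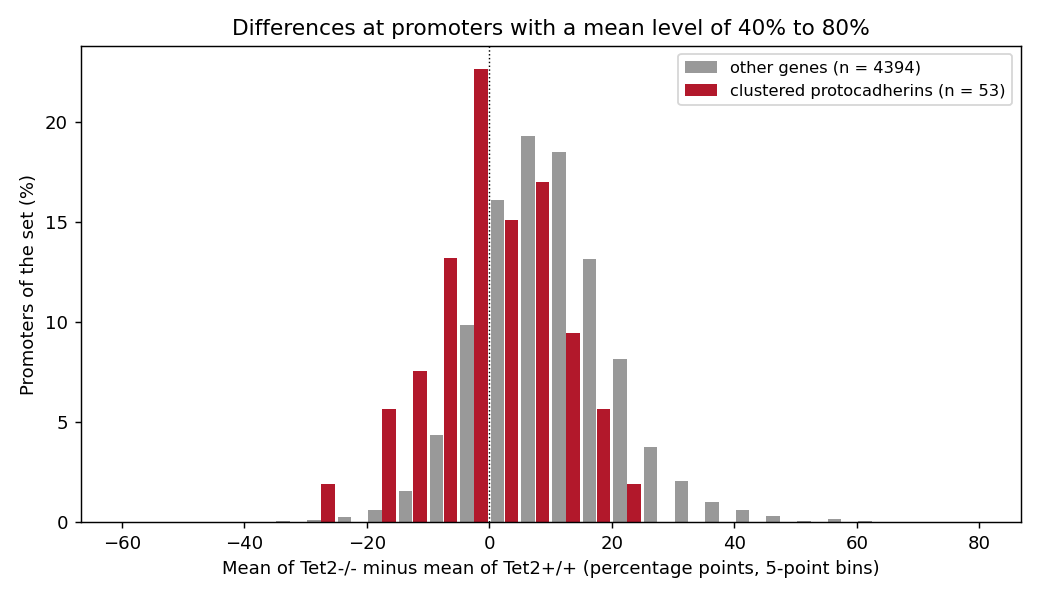
Distribution of the difference between the genotypes (mean of Tet2-/- minus mean of Tet2+/+, in percentage points) over promoters with a mean level of 40% to 80%, as the share of 53 protocadherin promoters (red) and of 4394 other promoters (grey) in bins of 5 points. The protocadherins centre near 0, at a median of -0.52 points, and the other promoters at 9.44 points.

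By cluster, the Pcdhb promoters were 6.04 points higher in Tet2-/-, at 59.3% ± 3.48 (SD, n = 3) against 53.3% ± 1.02 (SD, n = 2). The 3 Tet2-/- libraries all lay above the 2 Tet2+/+ libraries (exact permutation p = 0.2, where 0.1 is the smallest p possible). The Pcdha promoters reached 60.6% ± 7.15 (SD, n = 3, Tet2-/-) against 62.6% ± 3.54 (SD, n = 2, Tet2+/+; exact permutation p = 0.8). The Pcdhg promoters were 59.2% ± 3.51 (SD, n = 3) and 58.7% ± 0.794 (SD, n = 2) (exact permutation p = 1). Relative to the median of all promoters, which itself rose from 12.0% and 14.3% in Tet2+/+ to 16.4%, 17.2% and 18.8% in Tet2-/-, the difference was 1.71 points in Pcdhb, -6.39 points in Pcdha and -3.81 points in Pcdhg, whose sign turned (exact permutation p = 0.6, 0.3 and 0.4). The median of all promoters lay far below the levels of the clusters, so this scaling does not set promoters of like level side by side. Gene by gene, the 22 Pcdhb promoters had a median difference of 6.43 points. That is less than the 9.44 points of the 4394 other promoters of 40% to 80%, a contrast that was not tested. For the sums, the difference in Pcdhb exceeded that in Pcdhg by 5.53 points (exact permutation p = 0.1). The difference in Pcdha minus that in Pcdhb was -8.11 points (exact permutation p = 0.2), and the adjusted exact permutation p was 0.45 for both over 6 such comparisons. Without the C-type genes these values were 8.90 points (exact permutation p = 0.1) and -12.7 points (exact permutation p = 0.2).

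First exons and constant exons differed less than their libraries did. The difference was -2.82 points in the Pcdha first exons, 1.80 points in Pcdhb and 0.29 points in Pcdhg (exact permutation p = 0.6, 0.4 and 1). The constant exons were taken as those that at least 5 genes of a cluster share in the annotation. They held 39 dyads in Pcdha and 45 in Pcdhg and were also highly methylated as a sum. In Pcdha they had 75.9% and 69.2% in Tet2+/+ and 77.6%, 77.8% and 70% in Tet2-/- (difference 2.57 points, exact permutation p = 0.5). In Pcdhg they had 77.0% and 66.1% against 73.9%, 73.5% and 81.6% (difference 4.77 points, exact permutation p = 0.6). Both differences turned negative without Tet2+/+ library 24 (-0.74 and -0.65 points).

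At an unadjusted p under 0.05, 5 promoters were higher and 1 was lower in Tet2-/-, against 17.5% and 0.586% of all promoters. This balance turned with the scaling, since limma with library medians subtracted gave 0 higher and 8 lower (5 Pcdha and 3 Pcdhg genes), against 5.64% and 5.39% of all promoters. Pcdhb12 had 51.2% and 52.8% in Tet2+/+ and 77.1%, 70% and 71.6% in Tet2-/-, a difference of 20.9 points with no overlap (edgeR adjusted p = 0.144). Pcdhb11 had 44.1% and 38.7% against 62.5%, 71.9% and 48.1% (19.4 points, edgeR adjusted p = 0.240). Pcdhb14 had 55.3% and 49.2% against 68.2%, 77.8% and 61.7% (17.0 points, edgeR adjusted p = 0.2497). In all 3 of these Pcdhb genes every Tet2-/- library lay above both Tet2+/+ libraries. Pcdhac2 also had no overlap, with a difference of 17.3 points (edgeR adjusted p = 0.211), which moved to 8.80 points when Tet2+/+ library 23 was left out and to 25.8 points when library 24 was. In the other direction, Pcdhgb1 had 75.2% and 83.5% in Tet2+/+ and 63.3%, 63.6% and 59.0% in Tet2-/-, a difference of -17.4 points (edgeR adjusted p = 0.181). Apart from Pcdhac2, these genes were named after their p was seen.

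Pcdhgc3 had the smallest adjusted p of all protocadherin promoters (9.21 points, edgeR adjusted p = 0.142), although its levels overlapped, since Tet2-/- library 5 lay at 3.32% (interval 2.29% to 4.79%) between the Tet2+/+ libraries. It was the only protocadherin that passed under any alternative, namely without that library (13.6 points, edgeR adjusted p = 0.0205). The higher levels of Tet2-/- libraries 7 and 8 were not at the start itself, where all 5 libraries had 0% to 4.99% in the first 500 bp. They were found from 500 to 1000 bp into the first exon, with 36.5% and 26.0% in libraries 7 and 8 against 5.49%, 1.52% and 3.90% in libraries 23, 24 and 5. With only 500 bp on each side of the start, the difference of Pcdhgc3 was 1.96 points (edgeR adjusted p = 0.436). In the first exon Pcdhgc3 had 14.4% and 18.3% against 19.3%, 37.4% and 29.0%, with every Tet2-/- library above (12.2 points, edgeR adjusted p = 0.253).

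Some genes had far lower levels in 1 or 2 libraries than in the rest. The widest range of the locus was that of Pcdhga12, with 66.4% and 87.5% in Tet2+/+, 81.6% and 62.1% in Tet2-/- libraries 5 and 8, and 11.9% (interval 8.95% to 15.5%, 371 calls) in Tet2-/- library 7. The low level in library 7 was found after the start, with 1.15% of 87 calls in the first 500 bp and 8.49% of 259 calls in the next. The level rose to 34.9% of 373 calls between 1000 and 1500 bp and to 94.3% at 1500 to 2000 bp. The 500 bp before the start held only 6 calls in library 7, so the upstream edge of the low stretch could not be placed. The first exon as a whole was at 52.5% in library 7 and at 76.4% to 88.5% in the others. Pcdha8 had 31.4% (interval 26.4% to 36.8%, 306 calls) in the same library and 68.0% to 80% in the other 4. Pcdhgb6 had 23.4% in Tet2-/- library 7 and 33.9% in Tet2+/+ library 24, against 58.4% to 73.1% in the other 3, so this gene was low in a library of each genotype.

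Other genes varied in the same way with smaller ranges. Pcdhb10 had 31.7% in Tet2-/- library 8 and 42.3% in library 5, but 77.8% in library 7 and 53.2% and 64.9% in Tet2+/+. Pcdhga3 had 45.4% in Tet2+/+ library 23 and 66.9% to 83.2% in the other libraries. Pcdhga5 was high in Tet2+/+ library 24 (83.8%) and Tet2-/- library 8 (73.1%) and lay at 47.2% to 53.2% in the other 3. The median range across libraries was 19.0 points in the 53 protocadherin promoters of the band of 40% to 80% and 23.96 points in the 4394 others. In all, 4 of 58 promoters had a range over 40 points across the libraries, against 3.20% of the other promoters, and in that band with at least 50 calls it was 4 of 52 against 11.2% of 3140. In library 7, 3 of 52 such protocadherin promoters lay over 30 points below the median of the other libraries, against 0.414% of the other promoters of the band. In the other 4 libraries 0 or 1 protocadherin did so, against 0.255% to 8.03% of the others. The genes of this and the preceding paragraph were named after their values were seen, and they were given no test.

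**Figure D5:**
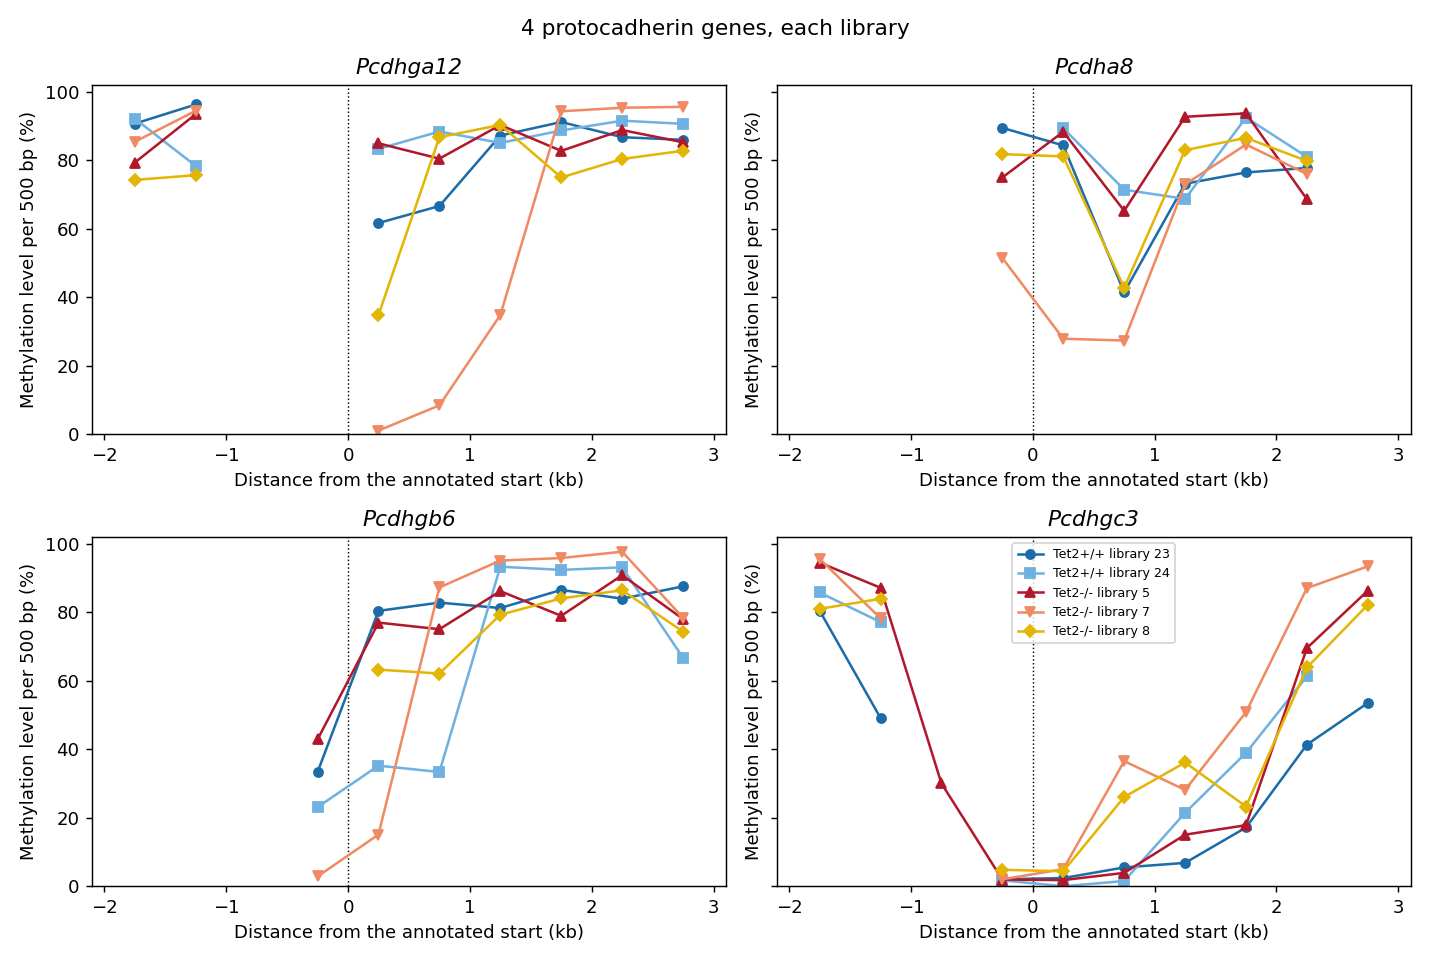
Methylation level in steps of 500 bp around the start of Pcdhga12, Pcdha8, Pcdhgb6 and Pcdhgc3, with 1 line per library (steps under 20 calls in a library are left out). Tet2-/- library 7 falls to 1.15% at the start of Pcdhga12, all libraries are at 0% to 4.99% at the start of Pcdhgc3, and libraries 7 and 8 rise to 36.5% and 26.0% in its next 500 bp.

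The protocadherins outside the clusters and most neighbours had lower levels than the clusters, but most genes inside the locus did not. The 12 protocadherins outside the clusters, which are single genes, 2 of them (Pcdh1 and Pcdh12) within 500 kb of the locus, had a median promoter level of 34.2% (6.23% to 54.7%), with 2 over 50%. Of these 12, 1 passed the test, against 1.07% of all promoters, namely Pcdh11x on the X chromosome, which had 37.4% ± 2.83 (SD, n = 2) in Tet2+/+ and rose by 28.0 points to 65.4% ± 2.79 (SD, n = 3, edgeR adjusted p = 0.048), and 10 of 12 differences were positive with a median of 4.40 points. The call of Pcdh11x was lost with any 1 library left out (25.96 to 29.97 points, edgeR adjusted p = 0.0812 to 0.488). In first exons 1 of 10 passed, against 1.44% of all first exons, namely Pcdh17, which had 26.4% ± 14.4 (SD, n = 2) in Tet2+/+ and rose by 21.1 points to 47.6% ± 2.46 (SD, n = 3, edgeR adjusted p = 0.007). Without Tet2+/+ library 24 this difference was 10.96 points (edgeR adjusted p = 0.937). The 34 other protein-coding genes within 500 kb of the locus, Pcdh1 and Pcdh12 among them, had a median promoter level of 12.0%, and 0 passed at promoters (6 at an unadjusted p under 0.05, against 18.1% of all promoters). Of the 5 that lie inside the locus, Taf7, the gene of a general transcription factor subunit between the clusters, had 12.5%, and the other 4 had 65.7% to 93.1%. The difference between the genotypes was positive in 3 of these 5, with a median of 0.02 points, and 4 of the 5 lay under 20% or over 80%.

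Genes whose products act at the clusters varied widely in promoter level. The 15 genes (CTCF, cohesin with its loading and release factors, SMCHD1, SETDB1, DNA methyltransferases and the other TET enzymes) had a median of 9.44%, against 16.1% over promoters outside the clusters, with 9 under 20%, among them Ctcf at 0.844% and Smchd1 at 1.12%, and 4 over 50%, among them Dnmt1 at 86.7%. The window of a gene lies at its outermost annotated start. In the 4 genes over 50% (Dnmt1, Tet1, Tet3 and Stag1) it held 19 to 36 dyads, against 78 to 216 in the others. Whether the outermost start is the one in use was not tested. At promoters 0 of 15 passed, against 1.07% of all promoters, and 0 had an unadjusted p under 0.05, against 18.1%. At first exons 0 of 10 passed, against 1.44%, and 0 had an unadjusted p under 0.05, against 8.74%. The marker genes of the sorted cells had a median promoter level of 11.7% for granulocytic and monocytic genes (8 genes), against 74.5% for T cell genes (5), 59.0% for B cell genes (5), 47.8% for erythroid genes (4 of 5 tested), 23.7% for neuronal genes (5) and 30.2% for stromal or endothelial genes (5). Of the 32 marker promoters tested 2 passed the test, against 1.07% of all promoters. They were Cebpe, a granulocytic transcription factor gene, and Hba-a1, an alpha globin gene, both higher in Tet2-/- (16.7 and 45.1 points, edgeR adjusted p = 0.041 and 0.042). Both calls were lost without either Tet2+/+ library (edgeR adjusted p = 0.132 and 0.118 without library 23, 0.485 and 0.419 without library 24) and without Tet2-/- library 7 or 8, and that of Hba-a1 also without library 5 (edgeR adjusted p = 0.0785). At first exons 1 of the 2 granulocytic and monocytic genes tested passed, against 1.44% of all first exons. It was Cebpe, higher in Tet2-/- by 27.4 points (edgeR adjusted p = 0.0378). That call was lost without Tet2-/- library 7 or 8 (edgeR adjusted p = 0.172 and 0.291). It was also lost without either Tet2+/+ library, with differences of 28.1 points (without library 23) and 26.6 points (without library 24). The part of cell composition in the differences above was not tested.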

How the data were processed

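Genomic DNA of sorted blasts was bisulfite converted by the authors and sequenced after random-primed library preparation. Per the labels and the study's methods, reads were trimmed with Trim Galore 0.4.3, aligned to GRCm38 (mm10) with Bismark 0.19.1 and Bowtie 2 in non-directional mode, and deduplicated. The files they deposited hold, for each CpG cytosine, raw counts of reads called methylated and of reads called unmethylated. These are reads without molecular identifiers, so intervals cover counting error only.

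Both cytosines of a CpG dyad were summed, and all 21353092 dyads matched the GRCm38 reference. Starts and first exons were taken from GENCODE vM21 (protein-coding genes, and Pcdhgb8, a polymorphic pseudogene). The symbol Pcdha11 belongs to 2 gene IDs, and both were kept. Promoters (1000 bp on each side) and first exons that reached 20 calls in all 5 libraries entered edgeR 4.0.16 (R 4.3.3), with 2 columns per library, a coefficient per library, one for methylation and one for the genotype. The quasi-likelihood test was adjusted by Benjamini-Hochberg over all regions of a kind. Sums over clusters were compared by exact permutation over the 5 libraries, each 1 mouse, and all tests were two-sided. The study transplanted the marrow of a donor into several recipients, and the labels do not say whether libraries share a donor. All tests treated the libraries as independent. The quasi-likelihood test and limma without subtracted medians were first tested on simulated data. There 200 regions under 50% were raised by 25 points, close to the largest protocadherin differences, or by 45 points. At promoters the quasi-likelihood test recovered 0 and 61 of them and limma 40 and 113. At first exons the quasi-likelihood test recovered 39 and 148 and limma 123 and 182. Regions over 50%, where most protocadherins lie, were not raised, and the other fits were not simulated. Alternatives were edgeR's likelihood ratio test, limma 3.58.1 on log2((methylated + 2)/(unmethylated + 2)) with and without library medians subtracted, 10 and 50 calls, thinning, dyads called in all libraries, 500 and 2000 bp, coding starts, unweighted means, and leaving out each library.

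Genes named were those past a threshold, the C-type genes, the 2 highest and 2 lowest promoters of each cluster and genes that missed the filter, and others are said to be named after their values were seen. The members and lists were chosen with earlier results of these data known. Of converted words of 75 bases, up to 28.3% of a first exon (Pcdha6) and 18.9% of a promoter recur in the locus, and 6.28% of Pcdha promoter dyads, 0.396% of those of Pcdhg and 0 of those of Pcdhb had no call in any library. The promoter windows of Pcdhb18, Pcdhb20 and Pcdhb22 overlap another member's first exon.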

Additional observations from a re-analysis of the deposited data

How the results depend on the processing

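Under the alternatives run, 0 protocadherin promoters (56 to 58 tested) and 0 first exons (56 to 58 tested) passed in every setting except 1: leaving out 1 library at a time gave 0 to 1 promoters, the 1 being Pcdhgc3 without Tet2-/- library 5. Over all genes, 209 promoters passed in the analysis as reported, 918 by the likelihood ratio test, 77 by limma, 9 by limma with library medians subtracted, 538 within 2000 bp, 104 within 500 bp, and 0 without Tet2+/+ library 24 (21 without library 23). Without Tet2+/+ library 24, 21 first exons passed in place of 180.

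Several cluster differences near 0 changed sign, and none of them had passed a test. With an unweighted mean of members, the Pcdhg difference between genotypes was -1.90 points at promoters, -0.675 at first exons and -0.757 at first exons relative to all genes, and Pcdha minus Pcdhg was -1.44 at promoters. Without the C-type genes, an alternative chosen after seeing the data, these values were -2.86, -2.03, -2.11 and -3.72, and Pcdha minus Pcdhg was -0.234 at first exons. With 500 bp the Pcdhg promoter difference was -0.281. With 2000 bp the Pcdhb promoter difference relative to all genes was -1.51, and Pcdhb minus Pcdhg was 0.709.

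With each library left out in turn, the promoter difference ranged from -6.12 to 0.652 in Pcdha, from -1.51 to 1.57 in Pcdhg and, relative to all genes, from -0.161 to 4.16 in Pcdhb. Pcdha minus Pcdhg ranged from -5.65 to 0.486 for the promoter difference. The Pcdhg first exon difference ranged from -1.15 to 1.61, and from -1.32 to 1.68 relative to all genes. The first exon difference ranged from -5.57 to -1.22 in Pcdha and from 0.596 to 4.01 in Pcdhb. The difference in Pcdha minus that in Pcdhb ranged from -11.1 to -4.45 at promoters, and that in Pcdhb minus that in Pcdhg from 3.53 to 6.81. The promoter levels differed by 2.84 to 7.15 (Pcdha minus Pcdhb), 1.28 to 3.53 (Pcdha minus Pcdhg) and -3.62 to -0.918 points (Pcdhb minus Pcdhg), each farthest from 0 without Tet2-/- library 7. The constant exons ranged from -0.741 to 5.89 in Pcdha and from -0.650 to 10.2 in Pcdhg. In all, the difference changed sign in 24 of 58 promoters and 26 of 56 first exons without 1 or another library. The promoters among them include Pcdha5 (-6.69 to 5.51), Pcdhac1 (-11.5 to 1.35), Pcdhb10 (-22.0 to 1.01), Pcdhb22 (-14.9 to 0.353), Pcdhga5 (-26.6 to 3.92), Pcdhgb6 (-21.8 to 17.4) and Pcdhgc5 (-1.06 to 4.48). Pcdhgc5 was also at -0.187 on the log2 scale by limma with library medians subtracted and at -0.251 points with 500 bp, and Pcdha5 was at 0.867 with thinned calls and at 2.50 with 2000 bp. The cause of these changes was not tested.

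The median difference of the protocadherins in the band of 40% to 80% also changed sign. At promoters it went from -0.52 points to 1.06 (50% to 70%), 1.35 (without Tet2+/+ library 24), 0.80 (without Tet2-/- library 7) and 2.06 (without library 8). At first exons it went from -1.02 points to 0.40, 0.21 and 1.94 (50% to 70%, without library 24 and without library 8). It stayed below the median of the other genes in each of these settings. No paired analysis was possible because the groups share no replicate number. Nothing in the labels says whether libraries were prepared together, and 2 and 3 mice with 34 or more calls per promoter limit the precision of each value.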
